A study of Mus musculus with 24 samples.

Results

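The 9 genes described here encode proteins of the endothelial tight junction, and they were chosen by name as 9 of the 17270 genes in the deposited table. They are the claudins Cldn5 and Cldn12, the MARVEL-domain proteins Ocln (occludin) and Marveld2 (tricellulin), the cytoplasmic plaque proteins Tjp1 (ZO-1) and Cgn (cingulin), and the immunoglobulin-type adhesion molecules F11r (JAM-A), Jam2 (JAM-B) and Esam. All 9 passed the filter on low values, for which the mean of the 24 libraries had to exceed 5 normalized counts. RNA had been sequenced from brain microvessels of male C57BL/6J mice aged 10 to 12 weeks, after transient middle cerebral artery occlusion (tMCAO) of 60 min, a filament model of stroke with reperfusion, or after sham surgery, in which the filament was withdrawn at once. Vessels of the operated (ipsilateral) and the opposite (contralateral) hemisphere were taken at 24 h or 7 days. This gives 8 groups: sham contralateral, sham ipsilateral, stroke contralateral and stroke ipsilateral at 24 h, and the same 4 at 7 days. Each group has 3 libraries, and each library pools 3 hemispheres, so p-values measure the spread between such pools and not between single mice. The paper states that more samples were made and that outliers were identified among them. The spread is therefore that of the libraries kept. The libraries hold whole microvessels, which were isolated mechanically and not sorted, and thus also cells attached to the vessel wall.

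Tight junctions seal the cleft between neighbouring endothelial cells of brain vessels and restrict the passage of water-soluble molecules from blood to brain. Claudins form the strands of the seal, occludin sits in the same strands, and tricellulin is placed where the borders of 3 cells meet. ZO-1 ties the strand proteins to the actin cytoskeleton, cingulin is a further protein of the cytoplasmic plaque best known from epithelia, and JAM-A, JAM-B and Esam are adhesion molecules at the same cell borders, of which JAM-A is also carried by leukocytes and platelets.

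The normalized counts of a library summed to between 15924780 and 18787932, which corresponds to an estimated 13691864 to 20032821 reads. Log2 values of replicates of a group correlated at 0.967 to 0.988 and no libraries were identical. All 12 endothelial markers, such as Pecam1 and Cdh5, were present in every library, with a sum of 330061 to 525804 normalized counts. In stroke ipsilateral libraries at 24 h this sum was 344219 to 380624, against 385095 to 487628 in sham ipsilateral libraries. In all stroke libraries 4 of the 12 markers were lower and 1 was higher, while 49.0% of all tested genes had no overlap in this comparison. At 7 days the sum was 394371 to 525356 against 330061 to 489062.

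Per kilobase of exon, Cldn5 was by far the most abundant of the genes, with a mean level of 38468 normalized counts per kb over the 24 libraries. Esam followed with 7062 per kb. Ocln with 1956, Tjp1 with 1885, F11r with 1662 and Jam2 with 1650 per kb lay close together. Marveld2 with 112 and Cldn12 with 80.4 per kb were far lower, and Cgn with 2.28 per kb was at the lower end of what was tested, at 3 to 37 normalized counts a library. On the mm10 genome, Cldn5 (ENSMUSG00000041378) lies at chr16:18776847-18778260 on the plus strand and Cldn12 (ENSMUSG00000046798) at chr5:5505015-5514873 on the minus strand. Ocln (ENSMUSG00000021638, chr13:100496507-100552718) and Marveld2 (ENSMUSG00000021636, chr13:100595957-100616971) are neighbours on the minus strand, 43.2 kb apart. Tjp1 (ENSMUSG00000030516) spans chr7:65296165-65371239 and Cgn (ENSMUSG00000068876) chr3:94760069-94786492, both on the minus strand. F11r (ENSMUSG00000038235, chr1:171437535-171464603), Jam2 (ENSMUSG00000053062, chr16:84774123-84825928) and Esam (ENSMUSG00000001946, chr9:37528078-37538319) are on the plus strand. The coordinates are those of the gene in the deposited table, introns included, and by them no other listed gene overlaps any of the 9. In the GENCODE annotation 2 of the genes are longer: Tjp1 reaches up to 65527781 and Cldn12 down to 5489537.

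The stretch of 250 bases before the annotated start is printed for Ocln and Tjp1, which were lower together at 24 h, for F11r, which was higher, and for Cldn5, which did neither. The sequences are RefSeq windows on GRCm38.p6, written in the direction of the gene, and 7 of the 9 genes have one in the tables used. Capitals mark matches on either strand to any of 7 motifs. The GC box was searched as GGGCGG, the element bound by Sp factors. The box bound by NF-Y was searched as CCAAT and the TATA box as TATAAA. For ETS factors the core CCGGAA was taken, and for the AP-1 complex the letters TGAGTCA. The E-box was given as CACGTG and the core bound by SOX factors as ACAATG.
Ocln, chr13:100552719-100552968, minus strand: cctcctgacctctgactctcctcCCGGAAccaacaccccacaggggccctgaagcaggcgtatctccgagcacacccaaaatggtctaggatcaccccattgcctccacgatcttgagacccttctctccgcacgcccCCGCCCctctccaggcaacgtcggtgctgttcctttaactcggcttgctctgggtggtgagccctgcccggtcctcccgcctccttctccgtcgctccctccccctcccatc
Tjp1, chr7:65371245-65371494, minus strand: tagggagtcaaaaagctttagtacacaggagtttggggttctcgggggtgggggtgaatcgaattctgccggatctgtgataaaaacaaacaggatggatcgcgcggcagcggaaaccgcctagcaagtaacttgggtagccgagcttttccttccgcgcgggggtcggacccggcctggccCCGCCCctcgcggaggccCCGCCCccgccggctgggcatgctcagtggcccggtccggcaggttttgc
F11r, chr1:171437311-171437560, plus strand: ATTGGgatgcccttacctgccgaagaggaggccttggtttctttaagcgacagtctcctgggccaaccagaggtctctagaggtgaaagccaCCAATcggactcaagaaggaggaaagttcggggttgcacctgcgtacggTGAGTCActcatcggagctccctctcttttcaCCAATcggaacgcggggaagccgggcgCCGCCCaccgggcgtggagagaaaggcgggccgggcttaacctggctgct
Cldn5, chr16:18776597-18776846, plus strand: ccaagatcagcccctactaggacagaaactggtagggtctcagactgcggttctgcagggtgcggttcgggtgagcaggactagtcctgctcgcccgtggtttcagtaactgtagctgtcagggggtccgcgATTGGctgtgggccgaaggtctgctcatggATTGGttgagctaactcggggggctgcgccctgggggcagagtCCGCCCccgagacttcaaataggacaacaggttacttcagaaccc
A GC box stood in all 4 windows, at 2 places in Tjp1, and in 32.7% of the 32851 windows of all genes. Of the 7 windows available 6 had it, the exception being Cldn12. The 4 printed windows were 59.6 to 64.0% G and C, against a median of 52.4% over all windows. The ETS core was found in Ocln and in the window of Cldn12, which is not printed, against 12.0% of all windows. The AP-1 letters were found in F11r, against 4.46%. CCAAT occurred in Cldn5 at 2 and in F11r at 3 places, against 33.8% of windows with at least 1. No matches overlapped each other, and these are matches of letters only. The last bases of the F11r window lie within the gene as the deposited table places its start. The Tjp1 window lies before the start in that table but inside the longer gene of the GENCODE annotation.

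At 24 h after stroke, ipsilateral microvessels held less Tjp1 and Ocln mRNA than those of sham-operated mice and more F11r mRNA, while the level of Cldn5 was close to that of sham. At 7 days the levels of Tjp1 and Ocln overlapped with those of sham, F11r was still higher, and Cgn, which is scarce in these vessels, was lower. For these comparisons log2 values of all 15982 tested genes were fitted with limma after adding 1, and the p-values of all of them were corrected together (Benjamini-Hochberg). Following the rule in the methods of the study, regulated means an adjusted p under 0.05 together with a log2 fold change of more than 0.585 upwards or downwards, which is 1.5-fold. The plot of normalized counts shows all libraries.

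Counted together, 1 of the 9 genes (Tjp1) was regulated in stroke against sham ipsilateral vessels at 24 h, where 18.3% of all tested genes were. An adjusted p under 0.05 was reached by 3 of the 9 genes, against 30.6% of all, and 5 of the 9 had libraries that did not overlap between the groups, against 49.0% of all. The median log2 fold change of the 9 genes was -0.18 and that of all genes -0.02. At 7 days, 1 of the 9 (Cgn) was regulated (13.2% of all genes), 2 had an adjusted p under 0.05 (16.9% of all) and the same 2, Cgn and F11r, had no overlap (30.0% of all), with medians of 0.05 and 0.02. None of these shares of the 9 genes was far above that of all genes. Between the hemispheres of stroke mice at 24 h, 2 of the 9, Ocln and Tjp1, were regulated (13.6% of all genes) and had an adjusted p under 0.05 (24.4% of all), and 4 had no overlap (40.8% of all). At 7 days, 0 of the 9 were regulated (13.0% of all) or had an adjusted p under 0.05 with limma (16.0% of all), 3 had an unadjusted p under 0.05 (26.9% of all), and only Cgn had no overlap (25.3% of all). From 24 h to 7 days in stroke ipsilateral vessels, 0 were regulated (12.2% of all), although 3 had an adjusted p under 0.05 (19.3% of all) and no overlap (34.2% of all). How far the stroke effect changed from 24 h to 7 days was regulated for 1 of the 9, against 8.12% of all genes, and had an adjusted p under 0.05 for 2, against 10.2% of all. These comparisons share libraries and are not independent of each other.

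**Figure D1:**
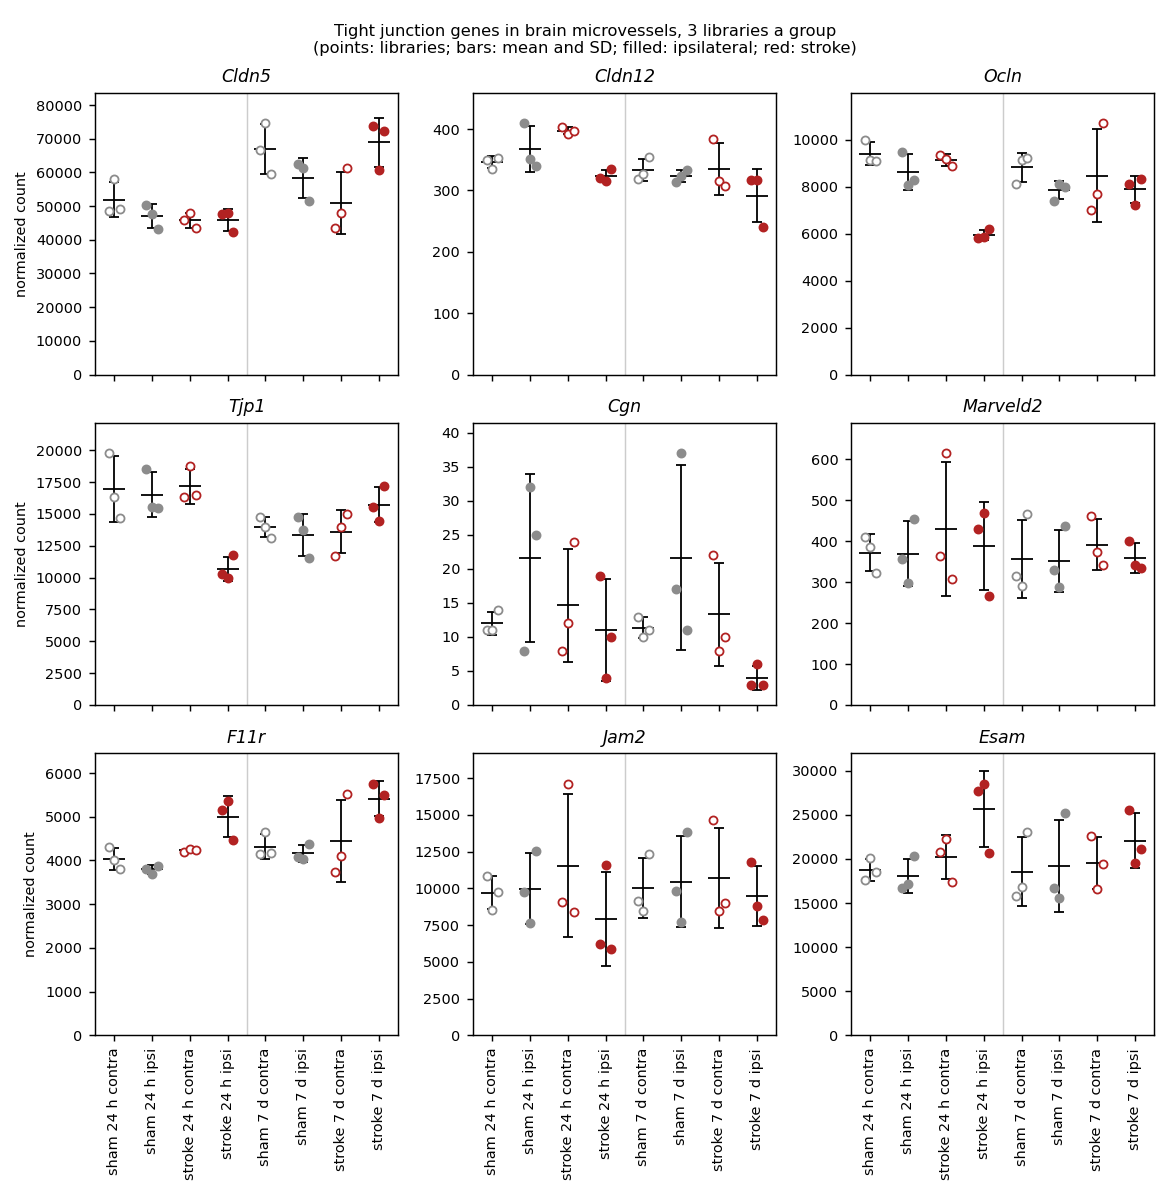
Normalized counts (linear axis from 0) of the 9 genes in the 8 groups, with 1 point per library, the mean and the SD, ipsilateral libraries filled and stroke libraries in red. The stroke ipsilateral libraries at 24 h lie below all other groups for Ocln (5798 to 6192) and below the sham ipsilateral libraries for Tjp1 (9953 to 11739 against 15465 to 18541), whereas those of Cldn5 (42176 to 48060) overlap with the sham ipsilateral libraries (43185 to 50190).

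Among the claudins, Cldn5, the main claudin of brain endothelium, had 50190, 47515 and 43185 normalized counts in the sham ipsilateral libraries at 24 h and 47535, 48060 and 42176 in the stroke ipsilateral ones. The groups overlapped almost completely. The log2 fold change was -0.03 (SE 0.16, limma adjusted p = 0.899), with a 95% interval from -0.37 to 0.31, so that changes of up to about 1.24-fold upwards or to 0.773 of the sham level were not excluded. At 7 days, sham ipsilateral libraries had 62489, 61177 and 51537 and stroke ipsilateral libraries 73846, 60700 and 72163 normalized counts. Here too the groups overlapped (log2 fold change 0.24, SE 0.16, adjusted p = 0.360). Within the stroke mice, the contralateral libraries at 7 days read 43561, 47962 and 61260. The highest of these exceeded the lowest ipsilateral library, and the difference of 0.45 (SE 0.16) missed the threshold with an adjusted p of 0.0697. Without contralateral library 3 it was 0.59, with an adjusted p of 0.0203. From 24 h to 7 days, Cldn5 rose in stroke ipsilateral vessels by 0.58 on the log2 scale (SE 0.16, adjusted p = 0.0166), just short of the fold limit, and all 3 libraries at 7 days were above all 3 at 24 h. With libraries centred on the 12 endothelial markers it was 0.31 (adjusted p = 0.123), and without stroke library 3 at 24 h or library 1 or 3 at 7 days the adjusted p was 0.0550, 0.0511 and 0.0526. With only the compared groups in the limma fit, the SE was 0.23 and the adjusted p 0.131. The sham groups moved the same way without reaching the threshold: the difference between 7 days and 24 h was 0.31 (adjusted p = 0.401) in ipsilateral and 0.37 (adjusted p = 0.415) in contralateral sham vessels, again with no overlap of the libraries. Such separation was seen for 22.0% of all genes in the ipsilateral sham comparison, where 4 of the 9 had it, and for 17.6% in the contralateral one, where only Cldn5 had it. The stroke effect at 7 days minus that at 24 h was 0.27 (SE 0.23, adjusted p = 0.486).

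Cldn12, a minor claudin of brain vessels, stayed between 241 and 410 normalized counts in all libraries. At 24 h, stroke ipsilateral libraries had 320, 316 and 335 against 410, 351 and 340 in sham ipsilateral and 403, 392 and 397 in stroke contralateral libraries. The stroke ipsilateral values lay below both other groups without overlap. The log2 difference was -0.18 (SE 0.11, adjusted p = 0.226) against sham and -0.30 (SE 0.11, adjusted p = 0.0534) against the contralateral hemisphere, so neither passed without a replicate block, and with libraries centred on the 12 endothelial markers the second value turned to 0.02, while median centring gave -0.38 (adjusted p = 0.0127). These comparisons share the stroke ipsilateral libraries. At 7 days the values were -0.16 (adjusted p = 0.356) and -0.20 (adjusted p = 0.244).

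Of the MARVEL-domain proteins, Ocln had 9477, 8064 and 8264 normalized counts in sham ipsilateral libraries at 24 h and 5798, 5836 and 6192 in stroke ipsilateral libraries. All stroke libraries were below all sham libraries, and the group means were 8602 ± 765 and 5942 ± 217 (SD, n = 3). The level was 0.692 of that in sham (log2 fold change -0.53, SE 0.12, adjusted p = 0.00285), lower with an adjusted p under the threshold but within the 1.5-fold limit, so that Ocln was not called regulated here. Against the stroke contralateral hemisphere, with 9350, 9155 and 8863, Ocln was regulated (log2 fold change -0.62, SE 0.12, adjusted p = 9.9e-04). No library of any other group read below 7003. Leaving out any library of the sham comparison kept the adjusted p between 0.00537 and 0.0225. With libraries centred on the 12 endothelial markers, the value against sham was -0.37 (adjusted p = 0.00491) and that against the contralateral hemisphere -0.30 (adjusted p = 0.0157), no longer past the fold limit. In bulk vessels, fewer endothelial cells and less Ocln mRNA per cell cannot be told apart.

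At 7 days, Ocln had 7402, 8118 and 7988 normalized counts in sham ipsilateral and 8089, 7234 and 8307 in stroke ipsilateral libraries. The groups overlapped, with a log2 fold change of 0.01 (SE 0.12, 95% interval -0.25 to 0.26, adjusted p = 0.980). Stroke ipsilateral vessels at 7 days held more Ocln than at 24 h, by 0.40 (SE 0.12, adjusted p = 0.0233), without overlap. Centred on endothelial markers the value was 0.14 (adjusted p = 0.274), and the adjusted p was 0.0601 to 0.0810 without stroke library 1 or 2 at 24 h or library 1 or 3 at 7 days. With only the compared groups in the limma fit it was 0.0519. The stroke effect at 7 days minus that at 24 h was 0.54 (SE 0.17), with an adjusted p of 0.0497 that lay directly at the threshold, and with endothelial marker centring it was 0.24 (adjusted p = 0.215).

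Marveld2, the tricellulin gene next to Ocln, had 357, 297 and 455 normalized counts in sham ipsilateral and 429, 469 and 267 in stroke ipsilateral libraries at 24 h, and 331, 288 and 437 against 401, 342 and 335 at 7 days. The groups overlapped at both times. The log2 fold change was 0.05 at each (SE 0.25, adjusted p = 0.894 and 0.928), with 95% intervals from -0.47 to 0.58 and from -0.48 to 0.57, which also hold changes as large as that of Ocln. Replicates varied widely, by up to 38.2% (coefficient of variation) in stroke contralateral libraries at 24 h.

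Of the plaque proteins, Tjp1 had 18541, 15499 and 15465 normalized counts in sham ipsilateral and 10290, 9953 and 11739 in stroke ipsilateral libraries at 24 h. Every stroke library was below every sham library. Tjp1 fell to 0.647 of the sham level (log2 fold change -0.63, SE 0.13, adjusted p = 0.00184) and was the one gene of the 9 called regulated in this comparison. Against stroke contralateral libraries with 16294, 18722 and 16462, it was 0.621 (log2 fold change -0.69, SE 0.13, adjusted p = 0.00105), also regulated. The call against sham lay close to the fold limit. Without sham library 1 the value was -0.54 (adjusted p = 0.0163), without stroke library 2 it was -0.58 (adjusted p = 0.0120), and with fold changes corrected for length and GC content of the transcripts it was -0.44 (adjusted p = 0.0124), each inside the limit. Centred on endothelial markers it was -0.47 (adjusted p = 0.0179) against sham and -0.37 (adjusted p = 0.0509) against the contralateral hemisphere.

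At 7 days Tjp1 had 14726, 13728 and 11506 normalized counts in sham ipsilateral and 15530, 14437 and 17192 in stroke ipsilateral libraries. The ranges overlapped slightly, and the log2 fold change of 0.24 (SE 0.13, adjusted p = 0.244) did not pass. Within stroke ipsilateral vessels, Tjp1 was higher at 7 days than at 24 h by 0.56 (SE 0.13, adjusted p = 0.00680), with no overlap and just inside the fold limit, but by 0.29 (adjusted p = 0.125) with endothelial marker centring. The stroke effect at 7 days minus that at 24 h was 0.87 (SE 0.19, adjusted p = 0.00673) and was called regulated. This difference came from both surgeries: the stroke mean went from 10661 to 15720, while the sham ipsilateral mean went from 16502 to 13320 (log2 difference -0.31, adjusted p = 0.297). With libraries centred on endothelial markers, the difference between the effects was 0.58 and lost the call (adjusted p = 0.0526).

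Cgn was listed at 8, 32 and 25 normalized counts in sham ipsilateral and 19, 4 and 10 in stroke ipsilateral libraries at 24 h. These ranges overlapped (log2 fold change -0.94, SE 0.55, adjusted p = 0.206). At 7 days it was listed at 17, 37 and 11 in sham and at 3, 6 and 3 in stroke ipsilateral libraries. All stroke libraries were below all sham libraries, and Cgn fell by 2.07 on the log2 scale (SE 0.55, 95% interval -3.22 to -0.91, adjusted p = 0.0132), on the scale with 1 added, which understates the change of such low values. The call was lost without sham library 2 (-1.61, adjusted p = 0.0840) and without stroke library 1 (-1.93, adjusted p = 0.0567). Against stroke contralateral libraries with 22, 8 and 10, the value was -1.45 (adjusted p = 0.0851).

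Markers of several other cell types were lower than in sham ipsilateral vessels at 7 days, as Cgn was. Of all tested genes, 30.0% had no overlap between stroke and sham ipsilateral libraries at 7 days and 49.0% at 24 h. The 6 choroid plexus markers, epithelial genes led by Ttr, were all lower in every stroke ipsilateral library at 7 days than in any sham ipsilateral library, with sums of 654 to 3121 against 15808 to 28981 normalized counts. At 24 h their sums were 7889 to 20649 against 5120 to 74202. All 6 neuron markers were likewise lower at 7 days, with sums of 415 to 718 against 3334 to 5738. So were all 4 fibroblast markers, with 3737 to 3860 against 6052 to 10361. Of the 6 astrocyte markers, 4 were lower and 1 was higher in all stroke libraries at 7 days, with 9676 to 13045 against 14926 to 31774 over the list. Pericyte marker sums at 7 days were 71776 to 75006 against 103306 to 128549, and 2 of the 7 markers were lower in all stroke libraries. In stroke contralateral vessels at 7 days, pericyte (89744 to 95955) and fibroblast sums (3317 to 5446) were below those of sham ipsilateral vessels too. Choroid plexus sums there were 2575 to 18468, and in sham contralateral vessels 2687 to 42863. Neuron (3677 to 12125) and astrocyte sums (16666 to 49748) of stroke contralateral vessels overlapped with those of sham ipsilateral vessels. At 24 h, where Cgn overlapped, all 6 neuron markers (1575 to 2200 against 4030 to 4211) and 4 astrocyte markers were already lower in all stroke libraries. None of these markers was at 0 in any library, and their part in the value of Cgn was not tested. The endothelial marker sums of the stroke and sham ipsilateral groups at 7 days overlapped.

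**Figure D2:**
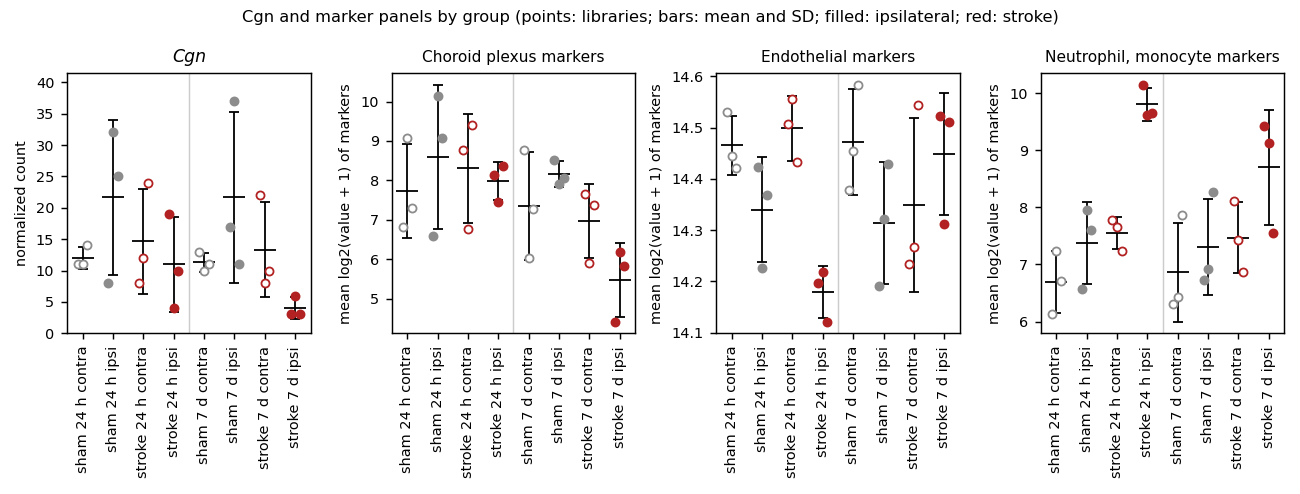
Cgn as normalized counts (left) and the mean log2(value + 1) of 3 marker lists in the 8 groups, with 1 point per library, the mean and the SD; the axes of the lists do not start at 0. At 7 days, the 3 stroke ipsilateral libraries lie lowest for Cgn (3 to 6) and are all below the sham ipsilateral libraries for choroid plexus markers (4.42 to 6.18 against 7.91 to 8.52), while neutrophil and monocyte markers are highest in stroke ipsilateral libraries at 24 h (9.62 to 10.14).

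Of the adhesion molecules, F11r had 3812, 3694 and 3876 normalized counts in sham ipsilateral and 5156, 5372 and 4476 in stroke ipsilateral libraries at 24 h. By 7 days, F11r read 4078, 4025 and 4382 in sham and 5757, 4973 and 5509 in stroke. All stroke libraries were above all sham libraries of the same time. The level was 1.31 times that of sham at 24 h (log2 fold change 0.39, SE 0.11, adjusted p = 0.0120) and 1.30 times at 7 days (0.38, SE 0.11, adjusted p = 0.0229), inside the fold limit at both times, and the stroke effects differed by -0.02 (SE 0.16, 95% interval -0.35 to 0.31). Against the contralateral hemisphere the values were 0.24 (adjusted p = 0.127) at 24 h and 0.30 (adjusted p = 0.0754) at 7 days, the latter 0.46 (adjusted p = 0.00140) without contralateral library 3. With endothelial marker centring, F11r was 0.55 (adjusted p = 1.5e-04) above sham and 0.56 (adjusted p = 1.0e-04) above the contralateral hemisphere at 24 h, and the difference from sham at 7 days was 0.24 (adjusted p = 0.0886). The adjusted p against sham passed the threshold by little: it was 0.0590 without stroke library 2 at 24 h, and at 7 days 0.100, 0.0608, 0.0679 and 0.0760 without stroke library 1 or 3 or sham library 1 or 2.

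Marker genes of blood cells differed as well, most clearly at 24 h. All 6 neutrophil and monocyte markers were higher in every stroke ipsilateral than in any sham ipsilateral library at 24 h, with sums of 8041 to 12221 against 2382 to 4043 normalized counts, while at 7 days the sums of 3357 to 9422 and 2764 to 5212 overlapped and 2 of the 6 markers were higher throughout. The 3 platelet markers in the table summed to 565 to 719 against 166 to 469 at 24 h and to 253 to 260 against 312 to 624 at 7 days. At 24 h all 3 were higher in every stroke library, while at 7 days 1 was higher and 1 was lower throughout. Of all tested genes, 49.0% had no overlap between stroke and sham ipsilateral libraries at 24 h and 30.0% at 7 days. The part of blood cells in the level of F11r was not tested.

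Esam, an adhesion molecule of endothelium and platelets, had 16758, 17115 and 20327 normalized counts in sham ipsilateral and 27707, 28541 and 20684 in stroke ipsilateral libraries at 24 h. The stroke libraries were above the sham libraries, the third only just. The log2 fold change of 0.50 (SE 0.19) missed the threshold with an adjusted p of 0.0549. It reached 0.64 with an adjusted p of 0.0249 without stroke library 3, and 0.66 with an adjusted p of 0.00590 when libraries were centred on endothelial markers, both past the fold limit. At 7 days, sham ipsilateral libraries at 16754, 15623 and 25171 and stroke ipsilateral libraries at 25600, 19523 and 21113 overlapped (0.23, SE 0.19, adjusted p = 0.478).

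Jam2 had 9778, 7658 and 12536 normalized counts in sham ipsilateral, 6239, 11604 and 5857 in stroke ipsilateral and 9095, 17125 and 8410 in stroke contralateral libraries at 24 h. In both hemispheres of stroke mice, library 2 stood well above the others. The log2 fold change was -0.38 against sham (SE 0.30, adjusted p = 0.353) and -0.54 against the contralateral hemisphere (SE 0.30, adjusted p = 0.200), and the groups overlapped. By library number, however, the ipsilateral to contralateral ratios were alike, at 0.686, 0.678 and 0.696. With a replicate block on that number, the difference between hemispheres had an adjusted p under 0.05 with limma but stayed inside the fold limit, as given at the end. By 7 days Jam2 read 9820, 7715 and 13838 in sham and 11811, 8784 and 7865 in stroke ipsilateral libraries (-0.12, SE 0.30, adjusted p = 0.839). The coefficient of variation reached 42.0%, which left 95% intervals from -1.01 to 0.25 at 24 h and from -0.75 to 0.51 at 7 days.

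**Figure D3:**
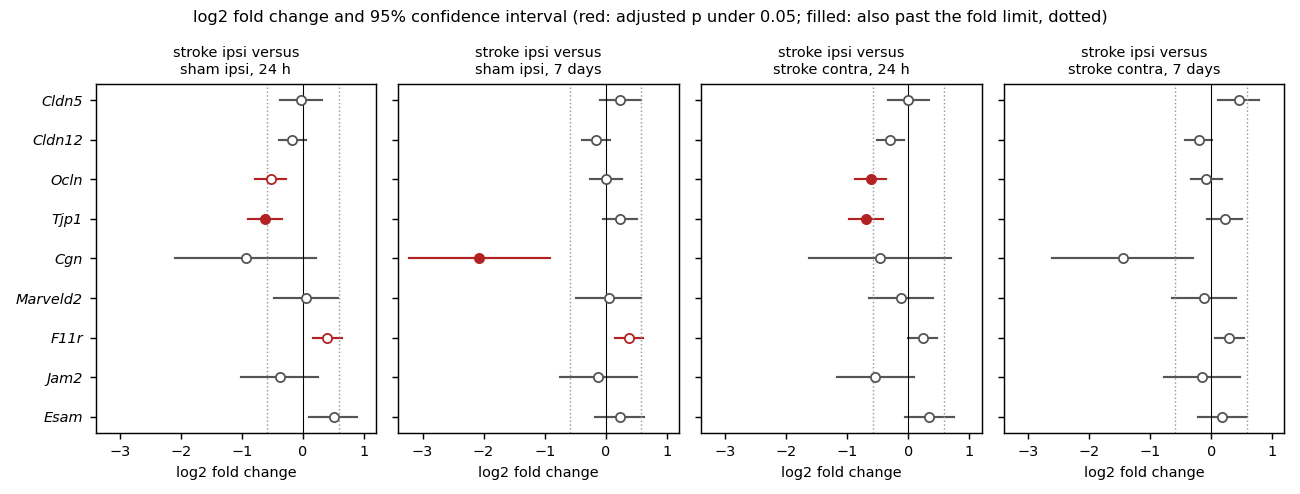
Log2 fold changes (points) with 95% confidence intervals (lines) of the 9 genes in 4 comparisons of the stroke ipsilateral hemisphere, red where the adjusted p was under 0.05 and filled where the change also passed the dotted limit of 0.585. Tjp1 is filled in both comparisons at 24 h, Ocln in that against the contralateral hemisphere, and Cgn against sham at 7 days (-2.07), while Cldn5 lies at -0.03 and 0.00 at 24 h.

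Among groups that were not ischaemic, none of the 9 genes was called with limma. Between the hemispheres of sham mice, 0 of the 9 had an unadjusted p under 0.05 at 24 h or at 7 days, and 0% of all genes were regulated at either time. Between contralateral hemispheres of stroke and sham mice, 0 of the 9 had an unadjusted p under 0.05 at 24 h (0% of all genes regulated) and 1 at 7 days, against 10.3% of all genes by the same measure (0.0313% regulated). This was Cldn5, with -0.40 (SE 0.16, adjusted p = 0.409). Between 7 days and 24 h, 1 of the 9 had an unadjusted p under 0.05 in sham ipsilateral vessels, against 14.1% of all genes (0.476% regulated), 1 in sham contralateral vessels, against 10.8% (0.332% regulated), and 2 in stroke contralateral vessels, against 16.5% (0% regulated). These were Tjp1 and Cldn5 in sham, as given above for Cldn5, and Cldn12 with -0.25 (adjusted p = 0.254) and Tjp1 with -0.34 (adjusted p = 0.214) in stroke contralateral vessels. Tjp1 was thus lower at 7 days than at 24 h by 0.27 to 0.34 on the log2 scale in the 3 groups without ischaemia, with adjusted p-values of 0.214 to 0.480.

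Over all 8 groups, the order of the group means was tight for most of the genes. The ratio of the highest to the lowest group mean was 1.22 for Marveld2, 1.36 for Cldn12, 1.42 for Esam, 1.43 for F11r, 1.46 for Jam2, 1.51 for Cldn5, 1.58 for Ocln, 1.61 for Tjp1 and 5.42 for Cgn. When the groups were put in order of their mean, neighbours overlapped in their libraries in all 7 steps for 8 of the genes. The exception was Ocln, whose lowest group, stroke ipsilateral at 24 h, stood clear of the next, sham ipsilateral at 7 days. Tjp1 had the same lowest group and the same next one, but its highest value of 11739 reached the lowest of the next group, 11506. The lowest group mean of Cldn5 was that of stroke contralateral vessels at 24 h, 45770 ± 2257, and the highest that of stroke ipsilateral vessels at 7 days, 68903 ± 7154 (SD, n = 3). For F11r the lowest was sham ipsilateral at 24 h, 3794 ± 92.3, and the highest stroke ipsilateral at 7 days, 5413 ± 401. For Esam it was the stroke ipsilateral group at 24 h that stood highest, 25644 ± 4316.

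Jam2, Marveld2 and Esam varied together between replicates. In 7 of the 8 groups the same library was the highest for all 3 genes, the exception being sham contralateral vessels at 24 h. Deviations of the libraries from their group means correlated at 0.87 for Jam2 and Marveld2, 0.80 for Marveld2 and Esam and 0.74 for Jam2 and Esam (Pearson, across the 24 libraries). Ocln correlated in the same way at 0.75 with F11r, 0.54 with Cldn5 and 0.51 with Tjp1, but at -0.12 with Marveld2. These are descriptions over libraries that share their groups, and no test was made.

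**Figure D4:**
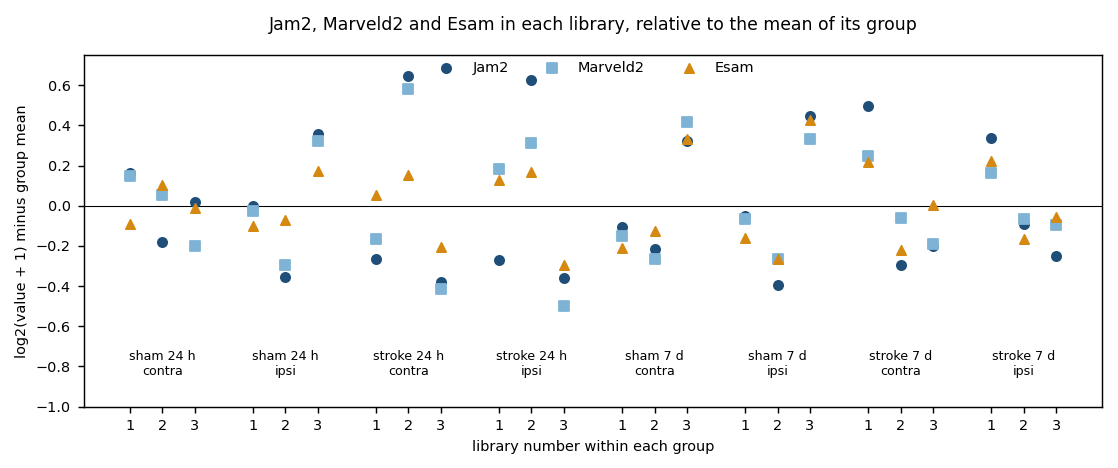
Deviation of log2(value + 1) of Jam2, Marveld2 and Esam from the mean of the group (vertical axis) in each library of the 8 groups (horizontal axis). In 7 of the 8 groups the 3 symbols are highest in the same library. In each of the 8 groups, the library highest for Jam2 and Marveld2 also had the highest sum of normalized counts.

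By the level over the 24 libraries, the genes most like each of the 9 were sought among those whose mean exceeded 100 normalized counts, with Pearson's r of the log2 values. Cldn5 was most like Bambi (0.87), Psmb9 (0.84) and Pla2g16 (0.83), and Cldn12 like Slc25a36 (0.83), Gmfb (0.83) and Dhx36 (0.82). Ocln was most like Rad21 (0.95), Nipal3 (0.93) and Ak3 (0.92), and Tjp1 like Col4a3bp (0.93), Eogt (0.92) and Tlk1 (0.92), while Ocln and Tjp1 correlated with each other at 0.77. Marveld2 was most like Stx12 (0.90), Kif23 (0.88) and Pak2 (0.87), and Jam2 like St8sia6 (0.91), Parvb (0.89) and Spag9 (0.89). F11r was most like S100a16 (0.90), Sh3bgrl3 (0.89) and Trir (0.88), and Esam like Sertad1 (0.95), Nsmce1 (0.94) and Ier2 (0.93). Cgn was most like Trpm3 (0.84), Chic1 (0.84) and Klhdc7a (0.83). All values rest on the same 24 libraries and their 8 groups.

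Of 56 other genes of the tight junction and its polarity complexes, 44 were tested. At 24 h, 1 was higher and 7 were lower in stroke than in sham ipsilateral vessels (1 and 10 with median centring, 2 and 4 with endothelial marker centring). Without centring these were 18.2% of the 44, against 18.3% of all genes. The one that rose was Ybx3, a Y-box protein that binds ZO-1 (log2 fold change 0.95, adjusted p = 8.9e-04). Those that fell most were Crb3 (-1.68, adjusted p = 0.0345), a polarity protein listed at 2 to 30 normalized counts in the groups compared, Cldn10 (-1.58, adjusted p = 0.00568), a claudin listed at 41 to 161, the adhesion molecule Clmp (-1.15, adjusted p = 0.00852), the angiomotin gene Amot (-0.90, adjusted p = 0.00210) and the scaffold gene Magi2 (-0.87, adjusted p = 0.00880). The median of the 44 genes was -0.32 and that of all genes -0.02.

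At 7 days, 1 of the 44 was higher and 6 were lower, together 15.9% against 13.2% of all genes, and 0 and 6 with endothelial marker centring. Magi1, a scaffold protein, rose (0.61, adjusted p = 0.00408). The largest decreases were in the claudins Cldn10 (-2.49, adjusted p = 1.7e-04) and Cldn1 (-2.00, adjusted p = 0.0220), the polarity kinase Prkcz (-1.87, adjusted p = 3.7e-05), the adhesion molecule Cxadr (-1.42, adjusted p = 0.00675) and Clmp (-1.31, adjusted p = 0.00538). These were scarce genes, as Cldn10 with 20 to 41 normalized counts in stroke against 102 to 263 in sham and Cxadr with 7 to 13 against 21 to 37, and they were lower at the same time as the neuron and choroid plexus markers given above. The part of these cells in the values was not tested. The median of the 44 genes was -0.17 and that of all genes 0.02.

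Between the hemispheres of stroke mice, 4.5% of the 44 genes were called at 24 h, against 13.6% of all genes. At 7 days these shares were 9.1% and 13.0%. From 24 h to 7 days in stroke ipsilateral vessels they were 6.8% and 12.2%. For the change of the stroke effect they were 9.1% and 8.12%. Between the hemispheres of stroke mice at 24 h, Ybx3 rose (0.77, adjusted p = 0.00501) and Amot fell (-0.87, adjusted p = 0.00322). At 7 days 0 rose and 4 fell, namely Cldn10 (-2.73), Prkcz (-2.00), Cxadr (-1.54) and Magi2 (-1.30). From 24 h to 7 days in stroke ipsilateral vessels, Ildr2, a protein of tricellular contacts, rose (0.61, adjusted p = 0.0458), and Cxadr (-2.04) and Ybx3 (-0.61) fell. The change of the stroke effect was positive for Pard3, a polarity scaffold (0.93, adjusted p = 0.00493), and Magi1 (0.63), and negative for Prkcz (-1.24) and Ybx3 (-0.94). In the 7 comparisons between groups without ischaemia, 1 call was made with limma, for Pard3, which was lower in sham ipsilateral vessels at 7 days than at 24 h (-0.61, adjusted p = 0.0418). That is 2.3% of the 44 genes, against 0.476% of all genes. Ildr2 and Pard3 fall outside the naming rule and were picked with their values known.

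Close relatives of Cgn and the JAM genes were not called at either time. The paracingulin gene Cgnl1 differed by -0.36 at 24 h and -0.22 at 7 days, and Jam3 (JAM-C) by -0.16 and -0.15. The adjusted p-values ranged from 0.0690 for Cgnl1 at 24 h to 0.662 for Jam3 at 7 days.

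**Figure D5:**
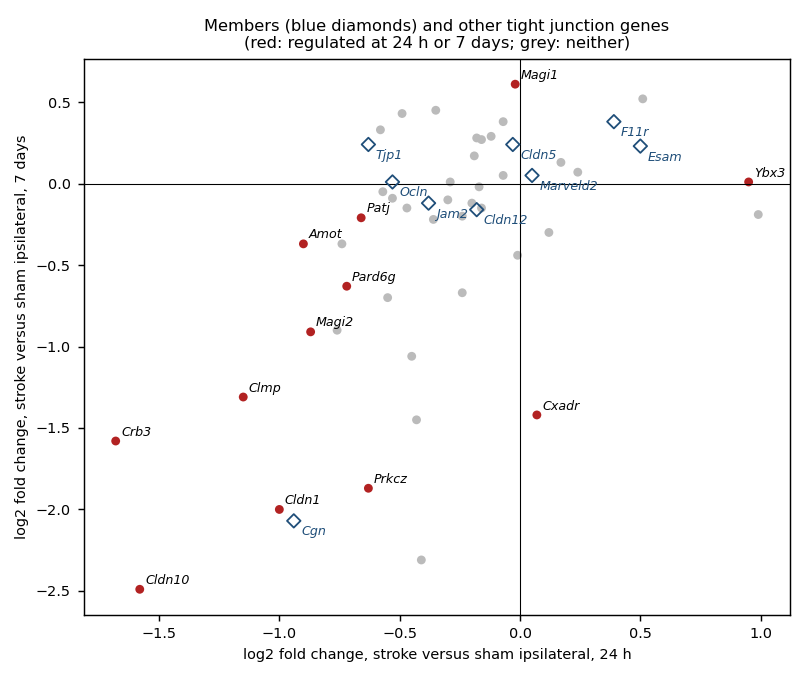
Log2 fold changes of stroke against sham ipsilateral vessels at 24 h (horizontal) and 7 days (vertical) for the 9 genes (blue diamonds) and 44 other tight junction genes (points, red where regulated at either time). Tjp1 (-0.63 and 0.24) and Ocln (-0.53 and 0.01) lie to the left near the horizontal axis, Cgn (-0.94 and -2.07) lies beside Cldn1, and F11r and Esam lie in the upper right.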

How the data were processed

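The deposited values are scores: the authors trimmed reads, aligned them to mm10 with STAR, counted them per gene, divided each library by its DESeq2 size factor and rounded to whole numbers (STAR 2.5.2b, featureCounts 1.5.1 and DESeq2 1.6.2 in the submitters' processing notes). The library kit was stranded, and the strand setting of the counting is not given in the sources used here. Because such values are no reads, no count model was run. Genes whose mean exceeded 5 (15982) were fitted on log2 values after adding 1 with limma 3.58.1 (R 4.3.3, mean-variance trend, 8 groups in 1 fit, Benjamini-Hochberg), and the fit was tested on simulated data. Exon lengths were taken from GENCODE for 99.9% of genes.

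Groups came from the labels. Same-numbered sham hemispheres deviated together (correlations of 0.145 to 0.410 at 24 h and 0.325 to 0.467 at 7 days). Those of stroke mice had positive correlations too, some of them weak (0.066 to 0.360 and 0.059 to 0.309). The 9 genes, the marker lists and the list of 56 other genes were chosen with earlier results of these data known. Named are the 9 genes, the other genes regulated against sham (at most 5 in each direction and time by size), Jam3 and Cgnl1, and the 3 genes most correlated with each of the 9. A further gene of the naming rule is not reported here. Alternatives covered pseudocount, filter, centring, length and GC content, samples in the fit, fold limit, replicate block and each library left out. Intervals cover the spread between libraries.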

Additional observations from a re-analysis of the deposited data

Results flagged for a closer look

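The stroke effect, ipsilateral against sham ipsilateral on the log2 scale, differed between 7 days and 24 h for 2 of the 9 genes by the interaction term in limma. For Tjp1 the difference was 0.87 (SE 0.19, adjusted p = 0.00673), between an effect of -0.63 at 24 h and of 0.24 at 7 days. For Ocln it was 0.54 (SE 0.17, adjusted p = 0.0497), between -0.53 and 0.01. With libraries centred on the 12 endothelial markers, the differences were 0.58 (adjusted p = 0.0526) for Tjp1 and 0.24 (adjusted p = 0.215) for Ocln. With each library left out in turn, the difference lay between 0.77 and 0.95 for Tjp1 (adjusted p 0.00569 to 0.0260) and between 0.46 and 0.60 for Ocln (adjusted p 0.0474 to 0.139). The sham ipsilateral level of Tjp1 differed by -0.31 between 7 days and 24 h (adjusted p = 0.297).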

How the results depend on the processing

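Of the counts of regulated genes among the 9, those of the 7 comparisons between groups without ischaemia were 0 under every alternative run. In stroke against sham ipsilateral vessels at 24 h the count of 1 (Tjp1) became 2 with median centring (Ocln added), 0 with the correction for length and GC content and 3 without the fold limit (Ocln and F11r added), and was 0 to 2 with single libraries left out. With endothelial marker centring it was again 1, but for Esam in place of Tjp1. That centring moved the median of all genes by 0.16 in this comparison, by 0.32 against the contralateral hemisphere at 24 h and by -0.27 from 24 h to 7 days, and turned the 24 h split of 1603 higher and 1316 lower genes into 2396 and 576, and median centring into 1330 and 1707. At 7 days the count of 1 (Cgn) became 0 with a minimum mean of 20, which leaves Cgn untested, 2 without the fold limit (F11r added), and 0 to 1 with single libraries left out. Between the hemispheres of stroke mice at 24 h, the count of 2 became 1 with endothelial marker centring (Esam, with 0.66) and 0 with the length and GC correction (Ocln and Tjp1 both -0.53), and stayed at 2 with single libraries left out. At 7 days the count of 0 became 1 without contralateral library 3 (Cldn5) and was 0 to 1 over the libraries left out. From 24 h to 7 days in stroke ipsilateral vessels, the count of 0 became 2 with median centring (Cldn5 and Tjp1), 1 with the length and GC correction (Cldn5) and 3 without the fold limit, and was 0 to 2 with single libraries left out. With only the compared groups in this limma fit, the adjusted p was 0.131 for Cldn5, 0.0519 for Ocln and 0.0387 for Tjp1. For the difference between the stroke effects, the count of 1 became 0 with endothelial marker centring and 2 without the fold limit, and was 1 to 2 with single libraries left out. For F11r at 24 h, median centring gave 0.33 with an adjusted p of 0.0630 and the length and GC correction 0.25 with 0.0728. The cause of these shifts was not tested.

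With the replicate block, the counts were those without it, 1 and 1 against sham and 2 and 0 between hemispheres. Between hemispheres the block joined libraries of the same surgery, time and number. In the other comparisons, also that between the stroke effects, it was the number alone. There it ties libraries of different mice, so it cannot serve as a check of those comparisons. Deviations of same-numbered stroke hemispheres correlated at 0.066 to 0.360 at 24 h (mean 0.251, against 0.293 in sham). At 7 days they correlated at 0.059 to 0.309 (mean 0.144, against 0.411 in sham). Whether the same number stands for the same mice is not stated. Under the block, Jam2 between stroke hemispheres at 24 h was -0.54 with an adjusted p of 0.00133 (ipsilateral to contralateral ratios of 0.686, 0.678 and 0.696 by number), Esam was 0.34 with 0.00782 and Cldn12 -0.30 with 0.0209. At 7 days Cldn5 was 0.45 with 0.0136 and F11r 0.30 with 0.0463, and Ocln in the difference between the stroke effects had 0.0522. Libraries of 3 per group limit what can be seen: the intervals of Jam2, Marveld2 and Cgn were wide, and values below about 10 normalized counts, as for Cgn, rest on few reads.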
